A study of Mus musculus with 12 samples.

Results

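The response of white adipose tissue to a high fat diet was measured with and without Ahnak, the gene of a very large scaffold protein found under the plasma membrane and in the cytoplasm. All 12 arrays of the series entered the comparison, the 6 from mice fed a high fat diet (HFD) and the 6 from mice fed regular chow, with genotype as a factor, so that the diet effect is the mean of its size in wild-type (WT) mice and its size in Ahnak knockout (KO) mice. Both genotypes were kept on both diets, which gives 4 groups of 3 arrays. Every mouse was male and 18 weeks old, in weight-matched groups kept on either diet for 12 weeks. The HFD held 60% fat, 20% carbohydrate and 20% protein. The strain, the design of the knockout allele and the fat depot are not stated in the labels. Nor do the labels say that the arrays of a group came from separate animals, so a p-value speaks only of the spread between the samples measured.

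White adipose tissue stores fat from the diet as triglyceride and also builds fatty acids from glucose, and it secretes hormones such as leptin that report the size of the store. On a fat-rich diet the tissue expands by enlarging its fat cells and by adding new ones, and its matrix, its vessels and its immune cells change along with them. Enzymes of fatty acid synthesis are switched on by insulin and carbohydrate through the transcription factors SREBP-1c and ChREBP, and dietary fat lowers them.

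Each array gave 1 log2 value for each of 19937 genes, and values ran from 2.09 to 14.2. Array medians lay between 5.78 and 5.92, and arrays of a group correlated with each other at r between 0.985 and 0.996. On the first principal component, which held 58.1% of the variance, the 6 chow arrays lay between -31.8 and -15.6. WT HFD replicates 2 and 3 lay farthest from them, at 57.8 and 47.2, and WT HFD replicate 1 lay at 26.4. KO HFD replicates 2 and 3 lay at 9.30 and 11.4, while KO HFD replicate 1 lay at -7.78, nearest to chow. For results in which these arrays stand apart, values without KO HFD replicate 1, or without WT HFD replicates 2 and 3 together, are given beside them. For the Ahnak probe set itself no change with the diet was established (log2 difference 0.06 ± 0.09, SE, limma adjusted p = 0.678). This value averages the WT and KO responses and does not give the WT response alone.

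The HFD changed 5329 of 19937 genes, 26.7% of those tested, at an adjusted p under 0.05 (limma, Benjamini-Hochberg over all genes). Of these, 2620 (13.1%) were higher and 2709 (13.6%) lower on HFD. Large changes were more often falls: 333 called genes were lower by more than 2-fold and 138 were higher by more than 2-fold. With each array's median subtracted the count was 6152, of which 4447 were higher and 1705 lower, so the split between directions depends on the scaling. Of the 5329 genes, 5148 had the same sign in both genotypes and 181 had opposite signs. The response was the larger one in WT for 1951 of the 2620 genes that rose and for 1847 of the 2709 that fell. In 1830 of the called genes, all 6 HFD arrays lay on 1 side of all 6 chow arrays, which was so for 9.34% of all genes (4.23% with HFD above and 5.11% with HFD below). The counts for gene lists that follow stand against 13.1% of all genes called higher and 13.6% called lower.

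Within each genotype, as contrasts of the same fit to all 12 arrays, the diet changed 4802 genes in WT (24.1%) and 1264 in KO (6.34%). Fits to the 6 arrays of 1 genotype alone called 3372 genes in WT and 585 in KO. In the fit to all 12 arrays, 847 genes (4.25%) were called in both genotypes and in the same direction. Another 14 (0.0702%) were called in both with opposite signs. In KO 559 rose (2.80%) and 705 fell (3.54%). The WT and KO responses share no array, and over the 19937 genes they correlated at r = 0.639 and Spearman's rho = 0.490, given as a description because genes are not independent replicates. The difference between the responses was called for 1 gene, Ppfibp2, which is 0.00502% of the genes tested. The median SE of that difference, 0.143 on the log2 scale, was wider than the median SE of the averaged effect, 0.0713. Without WT HFD replicate 1 the difference was called for 2060 genes and without WT chow replicate 2 for 20. Leaving out any other single array gave 0, 1 or 2. The KO count fell to 62 without KO HFD replicate 3, to 140 without KO chow replicate 1, to 229 without KO HFD replicate 2 and to 233 without KO chow replicate 3. It was 815 without WT chow replicate 1 and 750 without WT HFD replicate 3, and the WT count was 3072 without WT HFD replicate 3. With WT HFD replicates 2 and 3 left out together, which leaves 1 WT HFD array, the WT count was no longer larger than the KO count. The 2 counts then rest on unequal numbers of arrays.

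**Figure D1:**
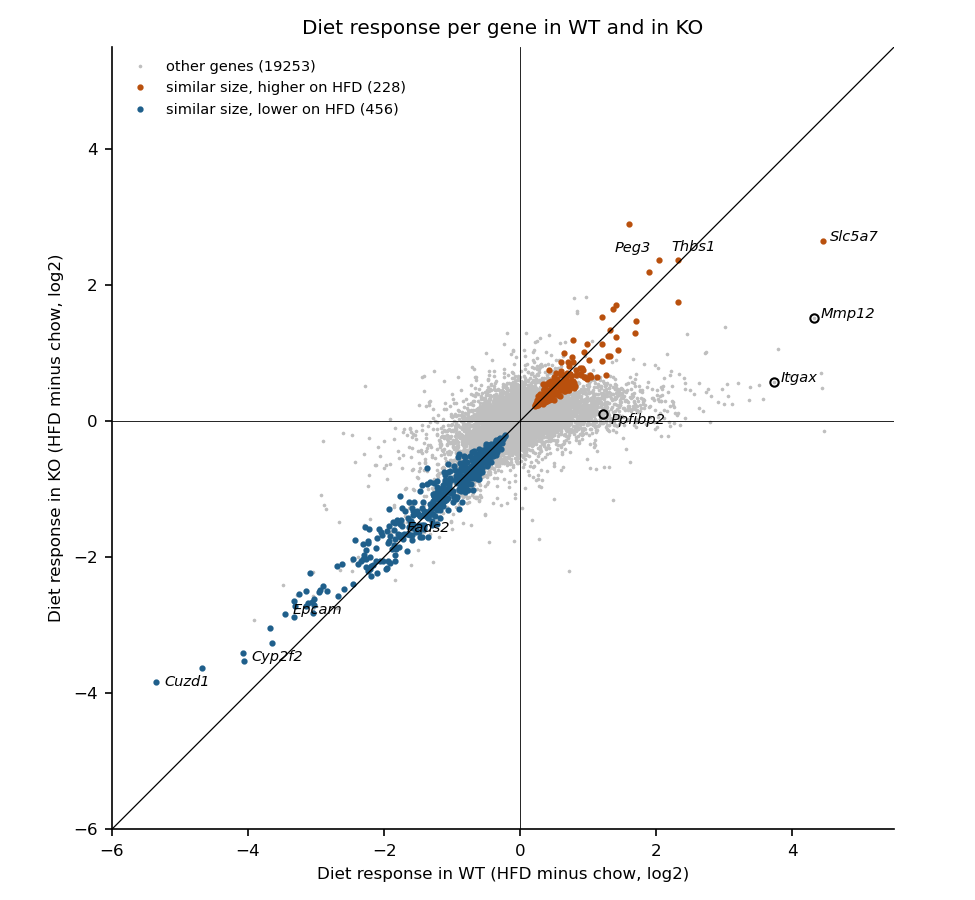
Each point is 1 of 19937 genes, with its diet response in WT on the horizontal axis and in KO on the vertical axis, both as log2 HFD minus chow, and the line marks equal responses. The 684 genes of similar size are coloured, and the 456 falls reach farther from 0 than the 228 rises.

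A response was counted as similar in size when the averaged effect was called, all 6 HFD arrays lay on 1 side of all 6 chow arrays, and the whole 95% interval of the KO minus WT difference was smaller than the averaged effect itself. On the log2 scale the larger response is then under 3 times the smaller, which does not hold for fold changes. The interval need not hold 0, so a similar size does not mean equal responses. The rule was met by 684 genes (3.43%), 228 higher (1.14%) and 456 lower (2.29%). Since WT and KO values chose these genes, their values are a description. The 228 rises had a median of 0.44 (WT 0.45, KO 0.43), and 19 of them were over 2-fold. The falls were larger, with a median of -0.93 (WT -0.94, KO -0.92) and 216 of 456 over 2-fold. For the other 4644 called genes, Ppfibp2 apart, neither a similar nor an unequal size was established. At the edge of the rule, Lrrc32 (0.64), Casp12 (0.50) and Nek4 (-0.22) were just inside and Prob1 (-0.67), Prr32 (1.22) and Cfap161 (-1.49) just outside. The count was 455 when KO HFD replicate 3 was left out and 792 when KO HFD replicate 1 was. With WT HFD replicates 2 and 3 left out together it was 390. Of the 684 genes, 238 met the rule in each of the 12 fits that left out 1 array.

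Among the 12 largest rises of similar size, predicted genes passed over, were secreted regulators of the matrix and of Wnt signalling, an imprinted gene and genes best known from nerve terminals. Thbs1, which encodes thrombospondin 1, a secreted glycoprotein that binds matrix and releases active TGF-beta, stood at 9.0, 9.58 and 9.03 in WT on chow and at 9.64, 8.65 and 8.73 in KO on chow. On HFD it was 12.21, 11.35 and 11.01 in WT and 11.45, 11.15 and 11.53 in KO. Every HFD array lay above every chow array by more than 1 log2 unit, and both genotypes overlapped on each diet. The rise was 2.35 ± 0.23 (log2 ± SE, n = 6 and 6 arrays, adjusted p = 0.000151), or 5.09-fold, with 2.32 in WT and 2.37 in KO. The related Thbs2 rose by 1.56 ± 0.19, with 1.41 in WT and 1.71 in KO.

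Peg3, a paternally expressed zinc finger gene, was 8.13, 8.03 and 6.65 in WT and 7.32, 7.56 and 7.95 in KO on chow, and 9.95, 9.10 and 9.87 in WT and 10.10, 9.74 and 10.09 in KO on HFD. WT chow replicate 3 was the lowest array, and the diets did not overlap. The rise was 2.20 ± 0.25 (adjusted p = 0.000393), or 4.60-fold, with 2.04 in WT and 2.37 in KO. Sfrp5, a secreted inhibitor of Wnt signalling that fat cells release, was 7.74, 8.03 and 8.75 in WT and 8.13, 7.25 and 7.66 in KO on chow. It was 10.40, 9.65 and 10.15 in WT and 9.68, 9.69 and 10.24 in KO on HFD. Its rise was 2.04 ± 0.21 (adjusted p = 0.000217), with 1.90 in WT and 2.19 in KO, and no array of 1 diet reached the range of the other.

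Slc5a7, the high-affinity choline transporter of cholinergic nerve terminals, had the largest averaged rise of the class, 3.55 ± 0.29 (adjusted p = 0.000107). Its chow arrays ran from 4.48 to 5.87, its WT HFD arrays were 9.20, 10.32 and 10.48 and its KO HFD arrays 6.64, 8.23 and 7.46. The rise was 4.45 in WT and 2.64 in KO, and every WT HFD array lay above every KO HFD array. Slc5a7 is thus in the class though its responses were far from equal. Without KO HFD replicate 2 it no longer met the rule of similar size. Syp, which encodes the synaptic vesicle protein synaptophysin, ran from 7.34 to 7.73 on chow and from 8.43 to 9.09 on HFD. Its rise of 1.33 ± 0.09 was 1.32 in WT and 1.34 in KO. Dock8, an activator of the GTPase Cdc42, rose by 2.04 ± 0.15 and Vgll3, a cofactor of TEAD transcription factors, by 1.59 ± 0.12 (WT 1.70, KO 1.47).

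The remaining rises among the 12 were those of Dusp10, a phosphatase of stress-activated MAP kinases (1.51 ± 0.12), Zdhhc2, a palmitoyltransferase (1.37 ± 0.21, with a similar size lost in 5 of the 12 fits that left out 1 array), the actin-binding Synpo2 (1.33 ± 0.11) and the histone gene H3c15 (1.49). H3c15 is 1 of several near-identical histone copies, and its probe set may read more than 1 of them.

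**Figure D2:**
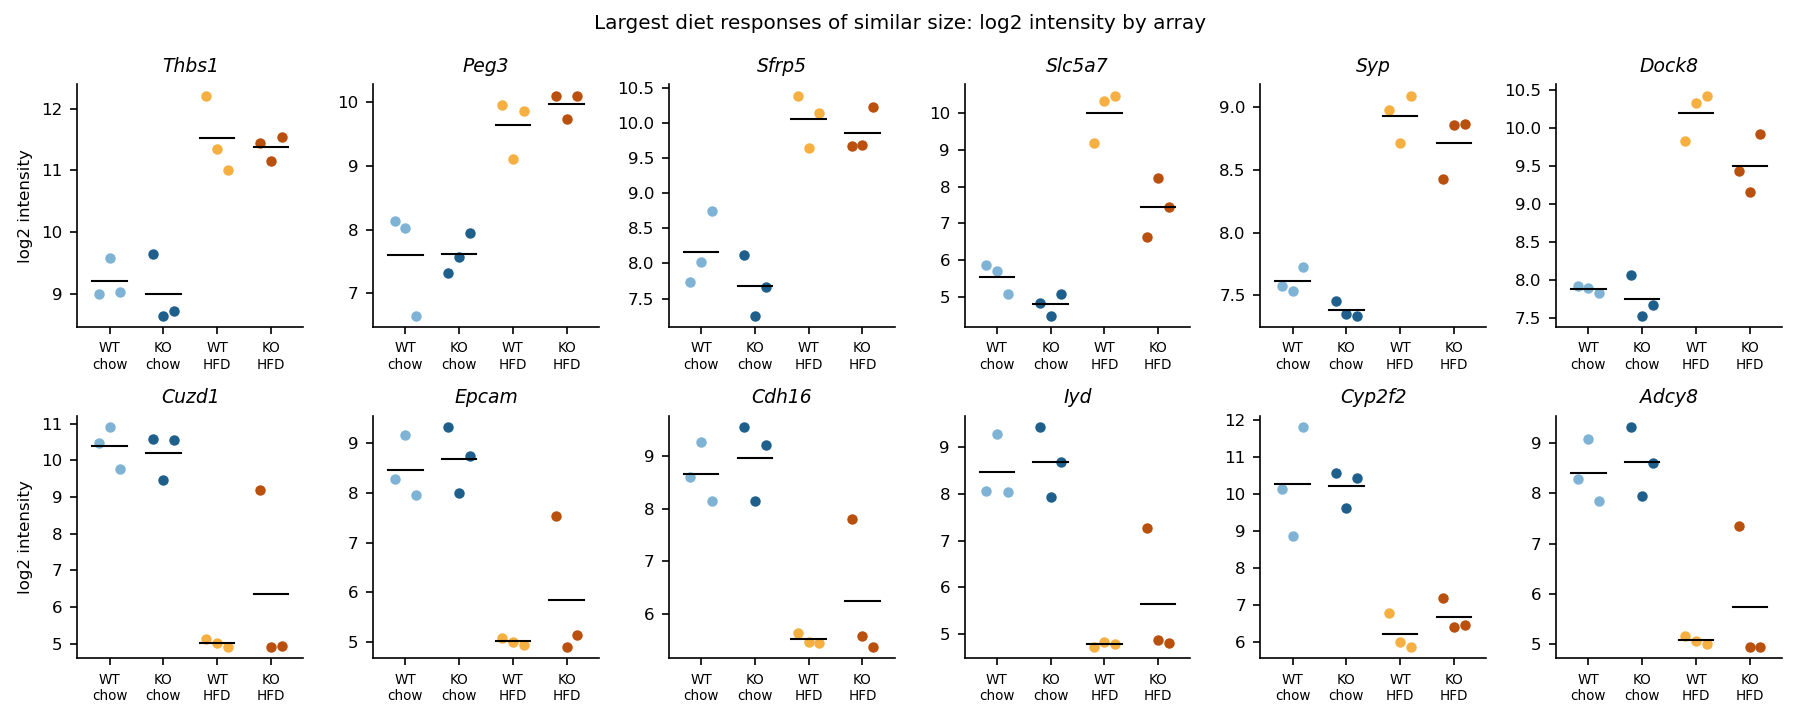
Log2 values of 6 rises (top) and 6 falls (bottom) of similar size are plotted for the 4 groups, each point 1 array (replicates 1, 2 and 3 from left to right) and each line a group mean, with a vertical axis of its own for each gene. The HFD arrays lie to 1 side of the chow arrays for each gene shown, and in the falls other than Cyp2f2 KO HFD replicate 1 stands well above the other HFD arrays.

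The 12 largest falls included Cuzd1, Epcam, Cdh16 and Iyd, which are known from epithelial cells. Cuzd1, a membrane protein of secretory epithelia, stood at 10.47, 10.91 and 9.77 in WT and at 10.57, 9.45 and 10.55 in KO on chow. On HFD it was 5.13, 5.03 and 4.90 in WT and 9.19, 4.92 and 4.94 in KO. All HFD arrays except KO HFD replicate 1 lay more than 4 log2 units below every chow array, while that array lay just below the chow range. The averaged fall was -4.60 ± 0.64 (adjusted p = 0.000841), or 24.3-fold, with -5.36 in WT and -3.84 in KO. Without KO HFD replicate 1 it was -5.31. Cuzd1 no longer met the rule of similar size in 9 of the 12 fits that left out 1 array.

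Epcam, the epithelial cell adhesion molecule, was 8.29, 9.17 and 7.96 in WT and 9.33, 8.01 and 8.75 in KO on chow, and 5.09, 5.01 and 4.95 in WT and 7.53, 4.89 and 5.14 in KO on HFD. The fall was -3.15 ± 0.42 (adjusted p = 0.00075), or 8.88-fold, and -3.57 without KO HFD replicate 1. Again that array was the only HFD array near chow. Cdh16, a cadherin of kidney tubules and thyroid follicles, ran from 8.14 to 9.56 on chow and from 5.37 to 5.64 in the 5 other HFD arrays, with KO HFD replicate 1 at 7.81 (fall -2.94 ± 0.40, and -3.32 without that array). Iyd, the iodotyrosine deiodinase of the thyroid, ran from 7.94 to 9.43 on chow and from 4.72 to 4.87 in the 5 other HFD arrays, with KO HFD replicate 1 at 7.27 (fall -3.36 ± 0.43, and -3.76 without it).

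Cyp2f2, a cytochrome P450 of airway epithelium, differed from these in that KO HFD replicate 1 lay with the other HFD arrays. It was 10.16, 8.86 and 11.82 in WT and 10.59, 9.63 and 10.43 in KO on chow, and 6.79, 6.0 and 5.86 in WT and 7.20, 6.40 and 6.46 in KO on HFD. The fall was -3.80 ± 0.42, and -3.93 without KO HFD replicate 1. The other falls among the 12 were those of Dcdc2a, a microtubule-binding protein of cilia (-4.15, and -4.76 without KO HFD replicate 1), and Bbox1, the last enzyme of carnitine synthesis (-3.75, and -4.30 without it). The surface protein gene Plet1 (-3.46 and -4.03), the adenylyl cyclase Adcy8 (-3.10 and -3.50), ccdc198 (-3.02 and -3.42), the potassium channel Kcnk1 (-2.99 and -3.41) and the glycosyltransferase B4galnt2 (-2.93 and -3.31) also fell, by more without that array. Without KO HFD replicate 3, Dcdc2a, Bbox1, Plet1, ccdc198 and Kcnk1 fell outside the rule of similar size. Over all 456 falls of similar size, KO HFD replicate 1 was the HFD array nearest to chow in 348 (76.3%), against 3178 of the 10920 genes (29.1%) that were lower on average. Among the 228 rises it was nearest in 98 (43.0%), against 2543 of 9017 genes (28.2%) that were higher on average.

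3 lists of epithelial genes were drawn up after these values were seen, so their counts are a description. Of 28 measured genes of epithelial adhesion and differentiation, 20 were lower on HFD and none was higher. Examples are the adherens junction protein Cdh1 (-1.44), the epithelial transcription factors Elf3 (-2.06) and Ehf (-1.73), and the simple-epithelium keratin Krt8 (-1.79). Of 31 genes of motile cilia, 28 were lower, among them the radial spoke genes Rsph1 (-2.19) and Rsph4a (-2.89), the central pair gene Spag6l (-2.23) and Foxj1 (-0.85), the master regulator of motile cilia. Of 25 genes of renal and other absorptive epithelia, 16 were lower, among them Hnf4a (-2.14), the brush border genes Vil1 (-1.84) and Cdhr5 (-2.63) and the endocytic receptor Lrp2 (-1.45). The peptidase Anpep was higher (1.22, and 0.54 without WT HFD replicates 2 and 3).

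The median changes of the 3 lists were -1.17, -1.11 and -0.89, against -0.02 over all genes. In WT they were -1.10, -1.17 and -0.60, and in KO -1.15, -1.04 and -1.17. The median fall of the renal and absorptive list was larger in KO, but the fall of its mean level was not. That level was 6.61, 7.13 and 6.54 in WT on chow and 5.58, 5.61 and 5.53 in WT on HFD. In KO it was 7.25, 6.51 and 7.08 on chow and 6.36, 5.57 and 5.44 on HFD. Without WT HFD replicates 2 and 3 the WT median of this list was -0.89. The mean level of the adhesion list was 6.66 to 7.31 on chow, 5.76 to 5.96 in 5 HFD arrays and 6.47 in KO HFD replicate 1. That of the cilia list was 6.25 to 7.23 on chow, 5.29 to 5.37 in the same 5 arrays and 6.0 in KO HFD replicate 1. The renal and absorptive list ran from 6.51 to 7.25 on chow and from 5.44 to 5.61 in the 5 arrays, with 6.36 in KO HFD replicate 1. KO HFD replicate 1 was the highest HFD array for 21, 24 and 16 members of the 3 lists. Without it, 20, 28 and 16 members were lower and the medians were -1.28, -1.19 and -0.99. Without WT HFD replicates 2 and 3 the counts were 19, 24 and 13. The falls of similar size numbered 15, 21 and 10 in the 3 lists, and 7, 7 and 5 without WT HFD replicates 2 and 3. They numbered 9, 12 and 6 without KO HFD replicate 3, 10, 13 and 6 without KO chow replicate 1, and 12, 14 and 6 without KO HFD replicate 2.

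Several genes of these epithelia were not called, among them the keratins Krt7 (0.00) and Krt19 (-0.72). Mesothelial cells, which line the surface of internal fat depots, also carry keratins, and 3 of 16 mesothelial markers were lower (Krt8, Krt18 and Rspo1). The call of Rspo1 (adjusted p = 0.0323, and at most 0.201 over the alternatives) was lost in 8 of 22 of them. Their defining markers Msln (-0.01), Wt1 (-0.25) and Upk3b (-0.28) were not called. The mean level of the mesothelial list was 8.07 to 9.04 on chow and 7.69 to 8.52 on HFD, so the diets overlapped. Markers of the epididymis and male tract had a mean level of 3.96 to 4.12 on chow and 3.93 to 3.97 on HFD, near the low end of the table, and 2 of 15 were called lower. In the mammary and salivary list 2 of 16 were lower, 1 of them Epcam, and 1 was higher. In RNA from whole tissue, fewer cells of a type and less RNA per cell cannot be told apart, and the part of other tissue in these falls was not tested.

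**Figure D3:**
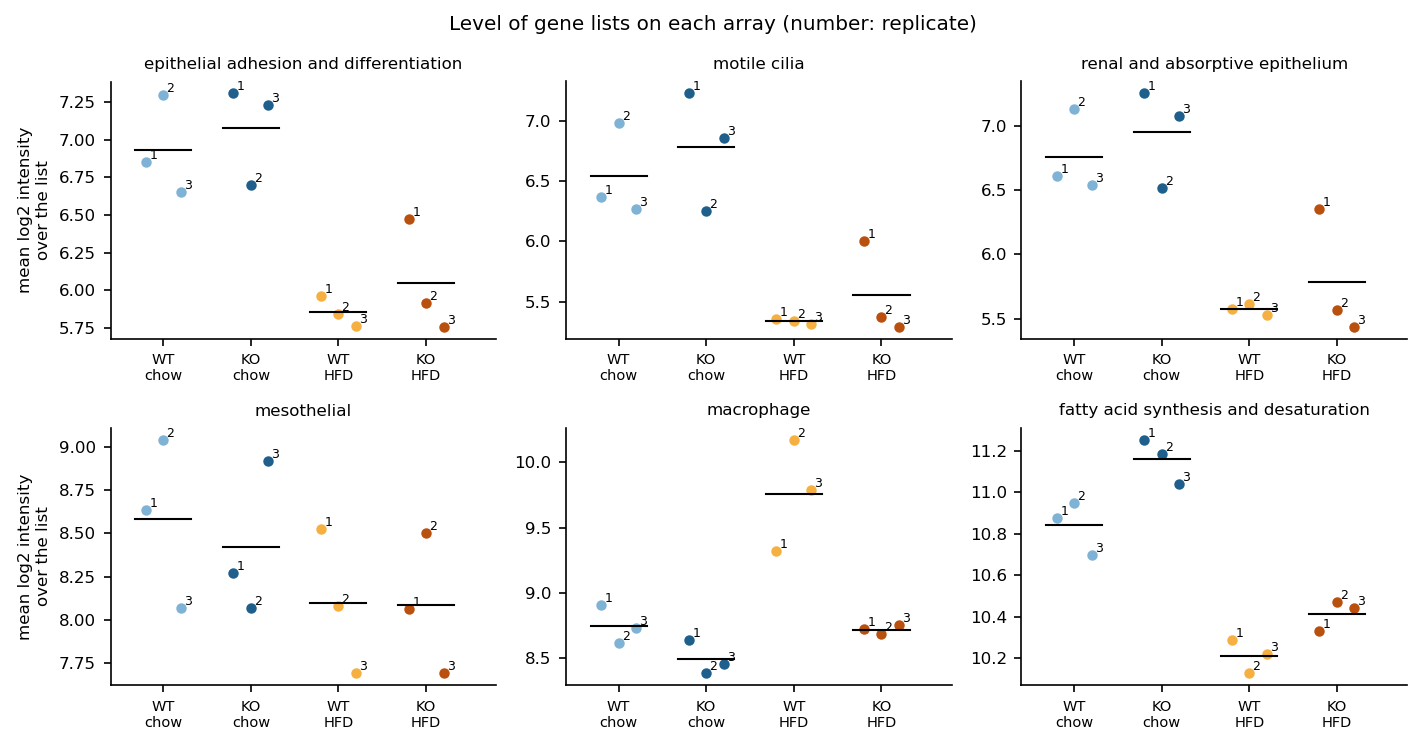
The mean log2 level of 6 gene lists is plotted by array, each point numbered by its replicate and each line a group mean, with a vertical axis of its own for each list. The 3 epithelial lists are high in all 6 chow arrays, low in 5 HFD arrays and intermediate in KO HFD replicate 1.

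Most enzymes that make fatty acids were lower on HFD in the average over both genotypes. Of 20 measured genes of fatty acid synthesis and desaturation, 14 fell and none rose, and 6 of the falls (Acaca, Fasn, Fads1, Fads2, Tkt and Pklr) were of similar size. Acaca no longer met the rule in 4 of the 12 fits that left out 1 array, and Pklr in 3. The list's median was -0.72 (WT -0.69, KO -0.82), against -0.02 over all genes. Tkt, a transketolase that links glycolysis to NADPH supply, had the smallest p-value. It was 11.88, 11.92 and 11.85 in WT and 12.50, 12.57 and 12.27 in KO on chow, and 11.16, 11.06 and 11.15 in WT and 11.27, 11.48 and 11.53 in KO on HFD. All HFD arrays lay below all chow arrays, and the fall was -0.89 ± 0.06 (adjusted p = 6.0e-05).

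Fasn, the fatty acid synthase, was 13.02, 13.08 and 12.77 in WT and 13.30, 13.33 and 12.98 in KO on chow. It was 12.34, 12.08 and 12.29 in WT and 12.02, 12.54 and 12.52 in KO on HFD. The diets did not overlap, and the fall was -0.78 ± 0.11 (adjusted p = 0.000824), or 1.72-fold. Acaca, the acetyl-CoA carboxylase that makes malonyl-CoA for this synthesis, fell by 1.26 ± 0.16 (WT -1.48, KO -1.03), and its mitochondrial counterpart Acacb fell by 1.05 ± 0.13 (WT -1.37, KO -0.73).

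The delta-5 and delta-6 desaturases of polyunsaturated fatty acids both fell. Fads1 ran from 10.69 to 11.28 on chow and from 9.49 to 10.38 on HFD (fall -1.10 ± 0.10), and Fads2 ran from 9.65 to 10.78 on chow and from 8.18 to 9.34 on HFD (fall -1.73 ± 0.22). KO HFD replicate 1 was the highest HFD array for both, and without it the fall of Fads2 was -1.89. It was also the highest for the pyruvate kinase Pklr (7.76, against 5.99 to 6.35 in the other HFD arrays), whose fall was -1.73 ± 0.27, and -2.00 without it. The epithelial lists were highest in that same HFD array, and their part in the falls of Fads2 and Pklr was not tested. For Fasn that array was the lowest of the HFD arrays.

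Transcription factors that drive this programme were lower too, Srebf1 by -0.66 and Mlxipl, which encodes ChREBP, by -0.53, as was Thrsp, a lipogenic regulator (-0.89, with -1.53 in WT and -0.26 in KO, and -0.44 without WT HFD replicates 2 and 3). Elovl6, which elongates palmitate to stearate, fell by 1.12 ± 0.20, with -0.46 in WT and -1.78 in KO. Its KO chow arrays stood higher (11.21, 11.16 and 10.19) than its WT chow arrays (9.76, 9.76 and 9.33), and the HFD arrays of both genotypes lay together between 8.59 and 9.33. The stearoyl-CoA desaturases Scd1 (-0.06) and Scd2 (0.22) were not called. Acaca, Fasn and the genes of this last group were chosen from the list after their values were seen. Between 13 and 15 members were called lower over the alternatives tried.

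**Figure D4:**
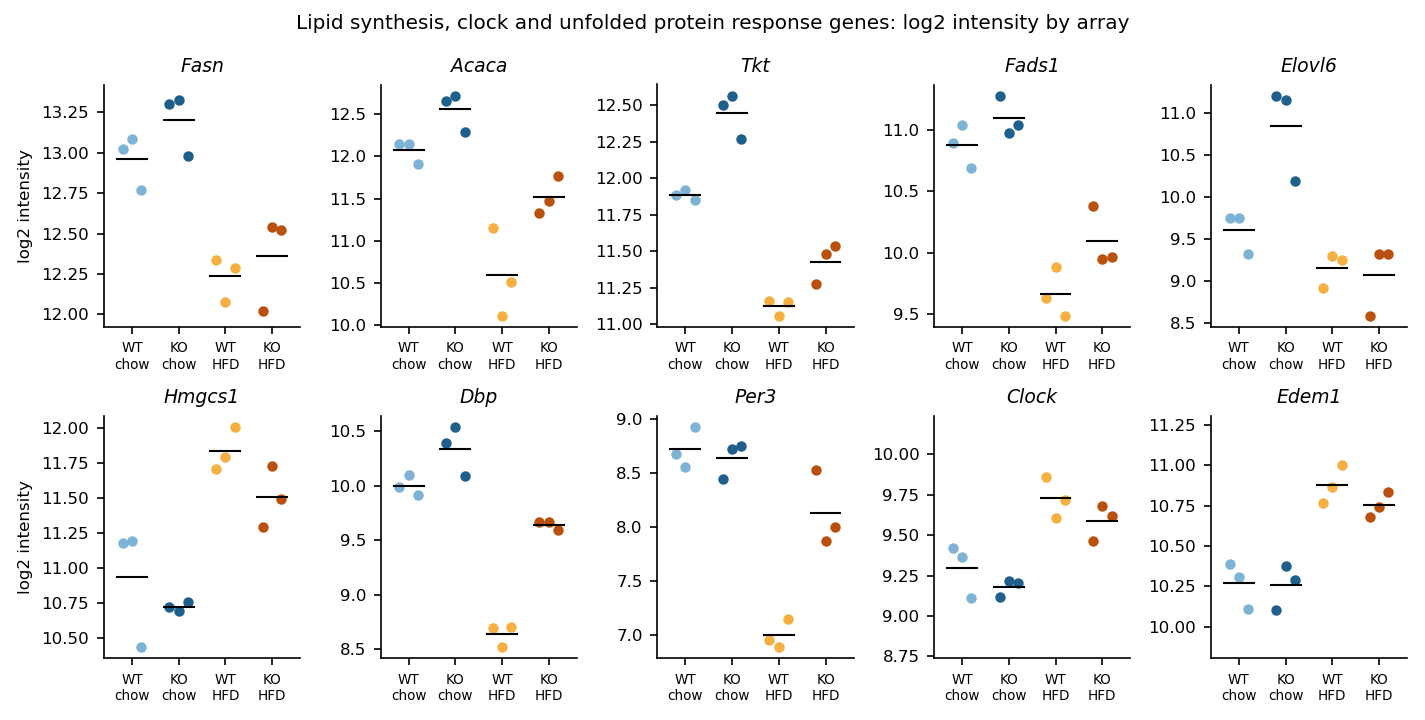
Log2 values are shown for genes of fatty acid synthesis, cholesterol synthesis, the clock and the unfolded protein response in the 4 groups, each point 1 array and each line a group mean. The fatty acid synthesis genes lie lower on HFD in both genotypes, and Per3 lies lowest in the 3 WT HFD arrays.

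Genes of cholesterol synthesis and uptake moved in both directions. Of 20 measured genes 5 rose and 1 fell. The list's median was 0.04, with opposite signs in the genotypes (WT 0.31, KO -0.24). The KO minus WT difference was called for no member. Hmgcs1, which makes HMG-CoA, was 11.17, 11.19 and 10.43 in WT and 10.72, 10.69 and 10.76 in KO on chow, and 11.71, 11.79 and 12.01 in WT and 11.29, 11.73 and 11.49 in KO on HFD. All HFD arrays were above all chow arrays, the rise was 0.84 ± 0.13, and its size was similar in both genotypes. That similar size was lost without KO HFD replicate 2. The later enzymes Hsd17b7 (0.51) and Dhcr7 (0.65, with 1.26 in WT and 0.05 in KO) rose on average, and the squalene synthase Fdft1 fell (-0.70, with -0.94 in WT and -0.45 in KO). Without WT HFD replicates 2 and 3 only 2 members were called higher, and Dhcr7 was 0.38 and no longer called (adjusted p = 0.0742).

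SREBP factors bind sterol elements, of which CACCCCAC is a core, and also E-boxes, CACGTG. To show where these letters lie, the 250 bases before the annotated start are printed for Hmgcs1, the only gene of the list with a similar size, and for Hsd17b7, from RefSeq on GRCm38.p6, with the match in capitals. Both strands were searched in windows from 250 bases before to 50 after each start. Hmgcs1 (chr13:119690101-119690350, plus strand) holds CACCCCAC at -136, and Hsd17b7 (chr1:169969206-169969455, minus strand) holds CACGTG at -143.
Hmgcs1: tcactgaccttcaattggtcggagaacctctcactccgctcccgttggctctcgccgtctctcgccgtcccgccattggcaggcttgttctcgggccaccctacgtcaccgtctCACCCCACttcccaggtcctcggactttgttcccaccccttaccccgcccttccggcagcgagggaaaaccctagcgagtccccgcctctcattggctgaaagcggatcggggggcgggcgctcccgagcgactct
Hsd17b7: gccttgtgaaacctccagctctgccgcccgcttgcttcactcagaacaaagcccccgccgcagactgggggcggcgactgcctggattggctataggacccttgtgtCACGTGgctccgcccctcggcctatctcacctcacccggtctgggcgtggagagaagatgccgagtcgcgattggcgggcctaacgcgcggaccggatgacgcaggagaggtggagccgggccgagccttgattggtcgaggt
Of 32851 promoter windows, 2.87% hold CACCCCAC and 7.15% hold CACGTG. Of the 3 windows of Dhcr7, 2 held neither and 1 held CACGTG at -164. A match describes the letters and is not a shown binding site.

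Clock genes moved in both directions. The circadian clock is a loop in which Clock and Arntl (BMAL1) switch on E-box genes, the Per and Cry proteins shut them down, and the PAR-bZIP factors Dbp, Tef and Hlf act on D-boxes. Of 17 measured clock genes 10 fell and 2 rose, with a list median of -0.39. The hour at which tissue was taken was not given in the sources used here.

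Dbp was 9.99, 10.10 and 9.92 in WT and 10.39, 10.54 and 10.09 in KO on chow, and 8.69, 8.52 and 8.71 in WT and 9.66, 9.67 and 9.60 in KO on HFD. The diets did not overlap, and on HFD every WT array lay below every KO array. The averaged fall was -1.03 ± 0.08, with -1.36 in WT and -0.69 in KO, and its size was similar by the rule but not in 7 of the 12 fits that left out 1 array. Per3, a repressor gene of the loop, was 8.68, 8.56 and 8.93 in WT and 8.44, 8.72 and 8.75 in KO on chow. It was 6.96, 6.89 and 7.15 in WT and 8.52, 7.87 and 8.0 in KO on HFD. KO HFD replicate 1 lay within the chow range, and the averaged fall was -1.11 ± 0.12 (-1.21 without that array), with -1.72 in WT and -0.51 in KO. The difference between genotypes was not called for either gene.

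The other PAR-bZIP genes Tef (-0.83) and Hlf (-0.92) also fell, as did Per2 (-0.68) and the repressor Ciart (-1.36 ± 0.16, with -1.44 in WT and -1.28 in KO). The activators rose, Arntl by 0.73 (WT 1.20, KO 0.26) and Clock by 0.42 (WT 0.43, KO 0.41). Per2, Ciart, Arntl and Clock were chosen after their values were seen.

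Of the 4 clock genes with the smallest p-values, Per3 and Tef hold the letters of a clock element in their windows, and Dbp and Hlf hold neither. The windows of Per3 (chr4:151044666-151044915, minus strand) with 2 matches to TTATGTAA, a D-box form, the first at -205, and of Tef (chr15:81802423-81802672, plus strand) with CACGTG at -127 are printed with matches in capitals.
Per3: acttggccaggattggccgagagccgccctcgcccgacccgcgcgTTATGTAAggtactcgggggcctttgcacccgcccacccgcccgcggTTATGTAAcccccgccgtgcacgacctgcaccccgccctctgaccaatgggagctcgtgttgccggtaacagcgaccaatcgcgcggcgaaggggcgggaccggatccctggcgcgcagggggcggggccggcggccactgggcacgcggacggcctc
Tef: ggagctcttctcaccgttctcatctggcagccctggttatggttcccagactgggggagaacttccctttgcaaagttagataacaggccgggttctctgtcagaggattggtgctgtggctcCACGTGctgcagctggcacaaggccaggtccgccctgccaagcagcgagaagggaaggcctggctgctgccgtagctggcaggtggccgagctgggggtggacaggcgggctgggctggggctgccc
TTATGTAA is held by 0.938% of all windows. No match says only that these letters are not in the window searched.

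Genes of the unfolded protein response, which raises chaperones and degradation factors of the endoplasmic reticulum, mostly rose. Of 23 measured genes 16 were higher and 1 lower (Herpud1, -0.35), with a median of 0.28 (WT 0.33, KO 0.20). Edem1, which hands misfolded glycoproteins to degradation, was 10.39, 10.31 and 10.11 in WT and 10.10, 10.38 and 10.29 in KO on chow, and 10.76, 10.87 and 11.0 in WT and 10.68, 10.74 and 10.83 in KO on HFD. The diets did not overlap, and the rise was 0.55 ± 0.07 with a similar size in both genotypes. The chaperone partner Sdf2l1 rose by 0.86 ± 0.13 (WT 1.19, KO 0.52), Dnajb11, a co-chaperone of BiP, by 0.41 and Sel1l, a part of the degradation complex, by 0.27.

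The element of these genes pairs CCAAT with CCACG 9 bases further on. The pair was in 39 of 32851 windows (0.119%) and in none of these 4 genes, while CCACG alone, which 32.8% of windows hold, was in all 4. Sdf2l1 (chr16:17132384-17132633, minus strand) held it most often, 3 times on the opposite strand, where it reads CGTGG, the first at -207.
Sdf2l1: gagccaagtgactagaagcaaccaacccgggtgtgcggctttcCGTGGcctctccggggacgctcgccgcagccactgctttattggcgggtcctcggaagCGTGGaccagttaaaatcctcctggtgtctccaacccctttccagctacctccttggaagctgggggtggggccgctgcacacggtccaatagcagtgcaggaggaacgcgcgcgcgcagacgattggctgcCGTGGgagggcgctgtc

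Hormones of fat cells changed in part. Of 19 measured adipokines 7 rose and 3 fell, and Sfrp5, Lep and Angptl4 rose by a similar size in both genotypes. Lep, which encodes leptin, was 12.01, 12.09 and 12.25 in WT and 11.51, 11.84 and 11.85 in KO on chow, and 13.00, 12.90 and 13.08 in WT and 12.34, 12.75 and 12.46 in KO on HFD. All HFD arrays lay above all chow arrays, by the least in KO HFD replicate 1. The rise was 0.83 ± 0.09 (adjusted p = 0.00026), or 1.78-fold, with 0.88 in WT and 0.78 in KO. Angptl4, a secreted inhibitor of lipoprotein lipase, ran from 10.78 to 11.68 on chow and from 11.76 to 12.11 on HFD, a rise of 0.77 ± 0.12. Its similar size was lost without WT chow replicate 2. Adipoq, the gene of adiponectin, was not called (-0.06, adjusted p = 0.675).

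Of 17 measured genes linked to fat expansion, several of them imprinted, 8 rose and 2 fell with a median of 0.16, and Bmp3, Sfrp5, Peg10 and Peg3 were of similar size. Bmp3, a ligand of the BMP family, rose by 1.04 ± 0.10 (WT 1.21, KO 0.88) and the imprinted Peg10 by 1.12 ± 0.13 (WT 1.29, KO 0.95). Mest, an imprinted gene of the endoplasmic reticulum that rises as fat cells enlarge, was 12.10, 12.00 and 10.37 in WT and 12.02, 11.61 and 11.48 in KO on chow. It was 12.93, 12.79 and 12.99 in WT and 12.54, 12.55 and 12.73 in KO on HFD. WT chow replicate 3 was again the lowest array, as for Peg3, and the diets did not overlap. The rise was 1.16 ± 0.25 (adjusted p = 0.0065), but its size was not shown to be similar (WT 1.41, KO 0.90).

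Of 20 genes of adipocyte identity, 3 fell and none rose, where 13.6% of all genes were called lower and 13.1% higher. The list's median was -0.12, with -0.36 in WT and 0.06 in KO. Its mean level was 11.25 to 11.47 on chow, 10.63 to 11.18 in WT on HFD and 11.30 to 11.38 in KO on HFD. The KO minus WT difference was called for no member. Without WT HFD replicates 2 and 3 the WT median was -0.11. Cidea, a lipid droplet protein of thermogenic fat in the mouse, ran from 6.26 to 6.90 on chow and from 5.19 to 5.72 on HFD, a fall of -0.94 ± 0.13 of similar size in both genotypes. Slc2a4, the insulin-responsive glucose transporter GLUT4, was lowest in WT HFD replicates 2 and 3 (8.37 and 9.36, against 10.23 to 10.51 in the other HFD arrays). Its fall was -0.85 (adjusted p = 0.021), -0.40 without those arrays, and its adjusted p was 0.0501 without WT chow replicate 3, when 1 member of the list was called. Without WT HFD replicate 1, 7 members were called lower. Pparg (-0.23, adjusted p = 0.141) and Fabp4 (0.04, adjusted p = 0.599) were not called. Ucp1, the uncoupling protein of brown fat, was not called (0.22), with WT HFD replicate 2 at 5.86 and the other HFD arrays between 4.40 and 4.61, and it was -0.03 without WT HFD replicates 2 and 3.

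Genes of the TCA cycle and the respiratory chain were lower by small amounts. Of 21 genes of the TCA cycle 16 fell and 1 rose (median -0.22), and of 25 respiratory chain genes 16 fell and none rose (median -0.21). Pdha1, a subunit of pyruvate dehydrogenase, fell by 0.55 ± 0.08 (WT -0.61, KO -0.49), of similar size in both genotypes. That size was lost in several alternatives, among them without KO chow replicate 2, without KO HFD replicate 3 and with array medians subtracted. The cytochrome oxidase subunit Cox4i1 was 11.04, 11.12 and 10.96 in WT and 11.30, 11.33 and 11.18 in KO on chow, and 10.75, 10.64 and 10.72 in WT and 10.99, 10.95 and 10.98 in KO on HFD. KO HFD replicates 1 and 3 lay within the WT chow range, so the diets overlapped across genotypes and not within them, and the fall was -0.32 ± 0.05. These counts depend on the scaling and on few arrays: with array medians subtracted 9 and 8 genes were lower, and without WT HFD replicates 2 and 3, 6 and 6. In branched chain amino acid breakdown 10 of 22 genes fell and 1, Bcat1, rose. The list's median was -0.29 (WT -0.54, KO -0.04), and -0.10 without WT HFD replicates 2 and 3. Bcat2, the mitochondrial transaminase that starts this breakdown, fell by -0.61 (WT -0.94, KO -0.29). Of 18 genes of glucose uptake and glycolysis 8 fell and 1 rose, and 5 fell without WT chow replicate 2 or with array medians subtracted.

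Other metabolic lists were split. Among 21 genes of triglyceride synthesis and lipid droplets 5 fell, led by Dgat1 (-0.43), which adds the last fatty acid to triglyceride, and 2 rose, the droplet proteins Hilpda (0.76) and Plin2 (0.58, and 0.35 with the call lost, adjusted p = 0.0520, without WT HFD replicates 2 and 3). In fatty acid uptake 3 of 15 rose and 2 fell, with Acsl5, an acyl-CoA synthetase, higher by a similar size (0.48 ± 0.06) and the transporter Slc27a2 lower by a similar size (-2.82). Slc27a2 also belongs to the renal and absorptive list, and its fall was -3.20 without KO HFD replicate 1. The similar size was lost in 8 of the 12 fits that left out 1 array for Acsl5 and in 4 for Slc27a2. Of 21 glutathione and redox enzymes 9 fell, among them Gsta4, which conjugates the lipid peroxidation product 4-hydroxynonenal (-1.59, and -1.05 without WT HFD replicates 2 and 3), and 3 rose, among them the extracellular Sod3 (0.42). In the hypoxia and angiogenesis list 6 of 22 rose and 6 fell. The TIE2 ligand Angpt2 rose by 0.96 ± 0.08, its counterpart Angpt1 fell by -1.50 ± 0.16 (WT -2.22, KO -0.79), and Pdk1, an inhibitor of pyruvate dehydrogenase, fell by a similar size (-0.88).

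Matrix, macrophage and cell cycle genes rose on average, with most of the rise in the WT arrays. Of 23 collagens and matrix genes 15 rose (median 0.41, with 0.70 in WT and 0.22 in KO). Of 22 genes of matrix remodelling 14 rose (0.62, with 0.94 and 0.27), and of 23 macrophage markers 15 rose (0.67, with 1.13 and 0.21). Of 21 markers of lipid-laden macrophages 13 rose (0.83, with 1.43 and 0.13), and of 23 cell cycle genes 18 rose (0.59, with 1.03 and 0.09). No member of these 5 lists was called lower. Without WT HFD replicates 2 and 3, in the same order, 13, 12, 13, 10 and 13 members rose, with medians of 0.42, 0.47, 0.41, 0.40 and 0.33. The medians of the macrophage lists and the cell cycle list were thus lower by over 1.5 times. Col12a1, a fibril-associated collagen, ran from 5.81 to 6.06 on chow, and was 7.64, 7.92 and 8.13 in WT and 6.61, 6.85 and 6.79 in KO on HFD. Its diets did not overlap in either genotype, with a rise of 1.99 in WT and 0.82 in KO. Cd68, a macrophage lysosomal protein, was 10.44, 9.97 and 10.03 in WT and 10.11, 9.85 and 9.73 in KO on chow, and 11.26, 12.83 and 12.37 in WT and 10.28, 10.20 and 10.33 in KO on HFD.

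For Cd68 the KO HFD arrays lay within the WT chow range but above every KO chow array. The averaged rise of 1.19 ± 0.22 held 2.01 in WT and 0.38 in KO. Without WT HFD replicates 2 and 3 it was 0.75, and the adhesion molecule Itgax of macrophages and dendritic cells went from 2.16 to 1.49. Mmp12, the macrophage elastase, ran from 6.0 to 8.63 on chow, was 11.33, 13.00 and 12.47 in WT and 7.58, 7.91 and 8.47 in KO on HFD, and rose by 2.92 ± 0.33 (WT 4.32, KO 1.52), and by 2.45 without WT HFD replicates 2 and 3. Mki67, a marker of dividing cells, rose by 0.92 (WT 1.61, KO 0.23), and by 0.57 without them. The KO minus WT difference was called for none of these genes, so the unequal sizes are values and not an established difference. The mean macrophage level was 8.38 to 8.90 on chow, 9.32 to 10.18 in WT on HFD and 8.68 to 8.75 in KO on HFD. Of the lysosome genes 15 of 24 rose (median 0.35), and 7 did without WT HFD replicates 2 and 3.

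**Figure D5:**
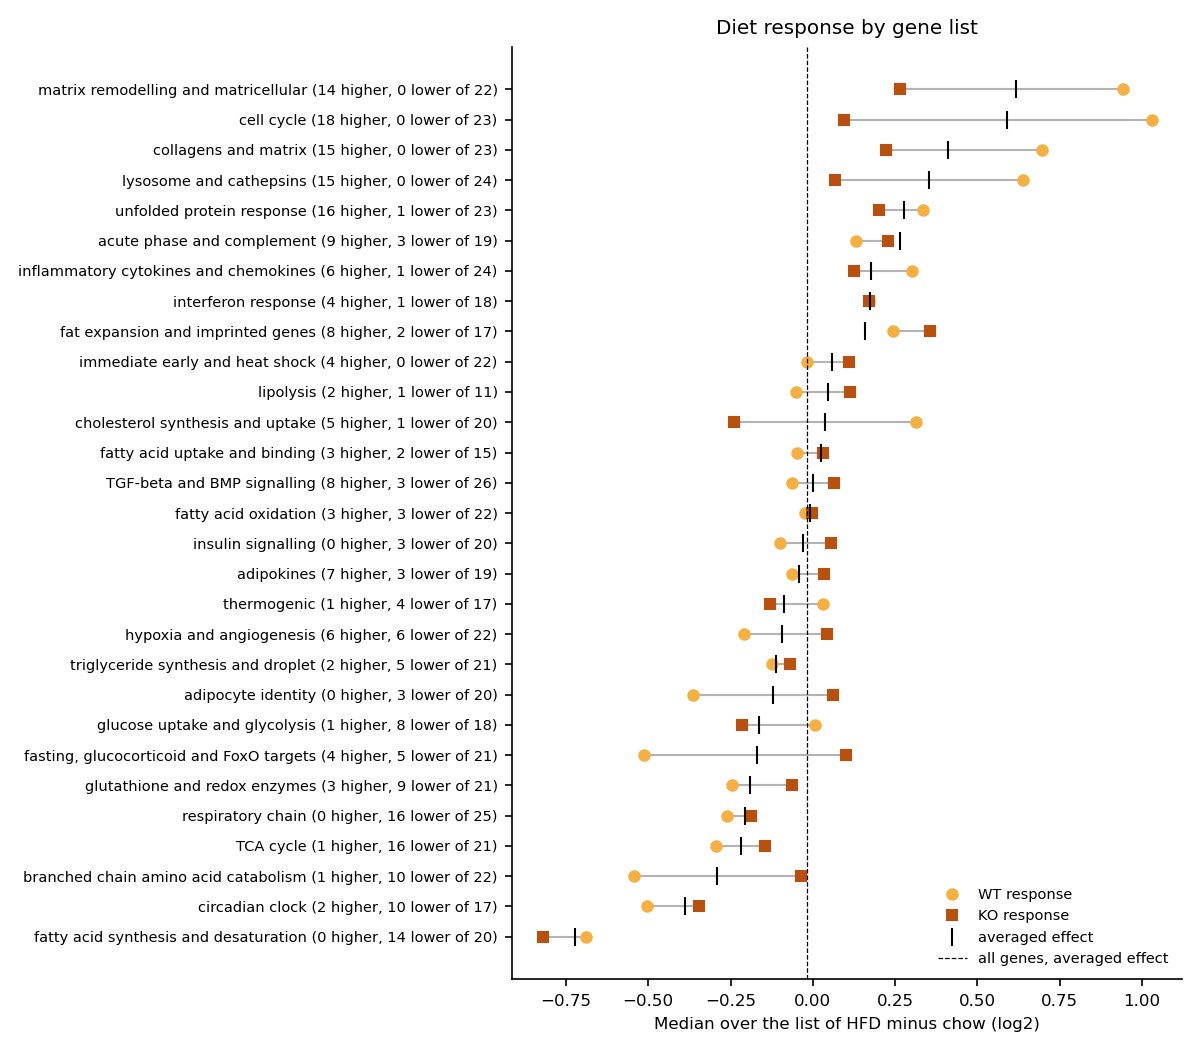
For each of the 29 pathway lists the median log2 difference between HFD and chow is plotted, averaged over genotypes and in WT and KO apart, and the dashed line marks the averaged median over all genes, -0.02. Fatty acid synthesis lies lowest (-0.72) with both genotypes below the line, and matrix remodelling lies highest (0.62) with WT at 0.94 and KO at 0.27.

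The remaining lists are given in turn. In inflammatory cytokines and chemokines 6 of 24 rose and 1 fell, the rises led by the chemokines Ccl6 (0.89 ± 0.08, with 1.14 in WT and 0.64 in KO) and Ccl9 (0.85). Among 19 acute phase and complement genes 9 rose and 3 fell. Saa3, a serum amyloid made in inflamed fat, rose by 1.60 (WT 2.63, KO 0.56), and by 1.11 without WT HFD replicates 2 and 3. Lcn2, a siderophore-binding protein of epithelia, neutrophils and fat, fell by -2.91 ± 0.55. Lcn2 was 11.04 to 12.07 on chow, 7.83, 9.33 and 8.30 in WT on HFD and 11.17, 7.78 and 7.62 in KO on HFD, so KO HFD replicate 1 stood apart as in the epithelial lists, and the fall was -3.49 without it. In TGF-beta and BMP signalling 8 of 26 rose and 3 fell, and 4 or 5 rose in several fits that left out 1 array. Among the falls was that of the receptor Bmpr1b (-1.23, of similar size). Its similar size was lost in 3 of the 12 fits that left out 1 array, with quantile normalization and with array medians subtracted.

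Insulin signalling had 3 falls in 20 genes, among them the insulin receptor substrate Irs1 (-0.57), thermogenic genes 1 rise and 4 falls in 17, fatty acid oxidation 3 and 3 in 22 with a median of -0.01, and lipolysis 2 and 1 in 11. Interferon response genes had 4 rises and 1 fall in 18, immediate early and heat shock genes 4 rises in 22, and fasting and glucocorticoid targets 4 rises and 5 falls in 21. The median of the fasting and glucocorticoid list was -0.51 in WT and 0.10 in KO, and -0.29 in WT without WT HFD replicates 2 and 3. That of insulin signalling was -0.10 in WT and 0.05 in KO. The KO minus WT difference was called for no member of these 2 lists. Among markers of other cells, 3 of 19 for T and NK cells rose, 4 of 17 for B and plasma cells rose and 1 fell, and 1 of 20 for granulocytes and mast cells rose and 1 fell. Endothelial markers had 1 rise and 2 falls in 22, smooth muscle and pericyte markers 1 and 4 in 16, stromal progenitor markers 5 and 2 in 18, skeletal muscle markers 1 and 2 in 17, and Schwann cell and neuron markers 1 and 1 in 13. Most of these small counts moved by over 1.5 times when single arrays were left out.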

How the data were processed

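Total RNA of white adipose tissue was labelled for Affymetrix whole-transcript arrays, 12 arrays in 4 groups of 3. The deposited table of the authors holds 1 log2 value for each of 34760 probe sets and each array. The submitters' processing notes name the affy package with no version, and how the values were normalized is not stated there or in the labels. The log2 base was inferred from the range of the values. The number of arrays limits the precision.

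GEO's platform annotation names 1 gene for 21640 probe sets, several for 1321 and none for 11799. Only probe sets with 1 gene were used, and where a gene had several (954 genes) the one with the highest mean over the 12 arrays was kept, which left 19937 genes. Of the named probe sets, 21553 matched a RefSeq gene. Of all 34760 probe sets tested together, 5870 were called, 1084 of them without a single gene.

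A model with 4 group means was fitted in limma 3.58.1 (R 4.3.3, 8 residual degrees of freedom) with moderated tests and Benjamini-Hochberg adjustment over all genes, and called genes have an adjusted p under 0.05. Its contrasts were the diet effect averaged over genotypes, the diet effect in each genotype and their difference. The script was tested on simulated data. Errors are SE from the fit.

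The named genes were Ahnak, the 12 largest rises and 12 largest falls of similar size, up to 5 unequal responses a direction, the 4 smallest p-values of each of 42 gene lists (826 of 891 entries measured) and 9 fixed genes. Predicted genes, receptor families of smell and small RNA genes were counted but not named. Other genes are named because of their values. The members and lists were chosen with earlier results of these data known. Promoter sequences and start sites were RefSeq's on GRCm38.p6, and 11 of the 12 genes looked for were matched. Alternatives tried were array or group weights, quantile normalization, median subtraction, a filter on dim genes, the mean of a gene's probe sets, a robust trended fit, an additive model, a replicate block and leaving out arrays.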

Additional observations from a re-analysis of the deposited data

Results flagged for a closer look

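Ppfibp2, which encodes liprin beta 2, was the only gene whose diet response differed between the genotypes at an adjusted p under 0.05 (limma, interaction term). It was 6.90, 6.89 and 6.80 in WT and 6.93, 6.80 and 6.88 in KO on chow, and 7.99, 8.11 and 8.16 in WT and 6.87, 6.94 and 7.12 in KO on HFD. The 3 WT HFD arrays lay above the other 9, which overlapped. The KO response minus the WT response was -1.12 ± 0.11 on the log2 scale (adjusted p = 0.014), with 1.22 in WT and 0.10 in KO. The direction was the same in every fit that left out 1 array, but the call was lost without WT chow replicate 1 or 3, KO chow replicate 1, or WT HFD replicate 2 or 3, with adjusted p from 0.0662 to 0.0834. It was also lost with the replicate block and without WT HFD replicates 2 and 3 together (-1.03, adjusted p = 0.109). The cause was not tested.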

How the results depend on the processing

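The averaged diet effect called 5329 genes. Leaving out 1 array gave 4056 to 5823, array weights, whose estimation did not reach its convergence tolerance, 8324, and leaving out WT HFD replicates 2 and 3 together, an alternative added after seeing the data, 3108. Similar sizes were met by 684 genes, with 455 to 792 when 1 array was left out (455 without KO HFD replicate 3), 390 without WT HFD replicates 2 and 3, 187 with a 99% interval and 10 with the interval inside 0.5 times the averaged effect. The difference between genotypes was called for 1 gene, for 0 to 2060 when 1 array was left out (2060 without WT HFD replicate 1), for 2 without WT HFD replicates 2 and 3, for 58 with dim genes left out and for 2819 with array weights. The WT effect called 4802 genes, with 3072 to 5285 when 1 array was left out, 618 without WT HFD replicates 2 and 3 and 9985 with array weights. The KO effect called 1264 genes, with 62 to 1509 when 1 array was left out, 585 from the KO arrays alone and 2137 with array weights. The cause of these shifts was not tested, except that leaving out arrays leaves fewer samples.

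Replicate numbers did not pair the arrays: of 18 pairs with the same number, 4 correlated above 0.1 in their deviations from the group means (range -0.41 to 0.38), and 2 of 12 arrays correlated best with their own number. With the replicate block 4856 genes were called in the averaged effect, 629 were of similar size, 740 were called in KO and 0 in the difference between genotypes. Over the named genes no called value changed sign under any alternative run.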
